A study of Homo sapiens with 9 samples.

Results

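The 48 genes described here make ribosomes: they encode RNA polymerase I and its factors, the proteins of the small nucleolar ribonucleoproteins (snoRNPs), nucleolar chaperones, and the factors that cut, fold, and assemble the ribosomal RNA. They were chosen by gene symbol and function, with no threshold on a measured value, but with earlier results of these data known. All 48 genes were found among the 58735 genes of the table. By role, 5 are nucleolar chaperones and RNA-binding proteins, 8 belong to RNA polymerase I, 8 are snoRNP proteins, 14 act on the small ribosomal subunit, and 13 act on the large subunit. They lie on 19 chromosomes.

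Ribosome production starts in the nucleolus, where RNA polymerase I transcribes a long precursor of the ribosomal RNAs. SnoRNPs then modify the precursor, and the small subunit processome forms on the part of it that is made first. Separate sets of helicases, nucleases, and scaffold proteins release the small and the large subunit. In colorectal cancer cells this pathway is known to be highly active, and many of its genes are known targets of the transcription factor MYC.

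RNA was sequenced from HCT116, a long-established line of human colorectal carcinoma cells, in 9 libraries, 3 each of WT cells, A20-KO cells, and A20-OE cells. A20 is a ubiquitin-editing enzyme encoded by TNFAIP3. The series title describes the A20-OE cells as knockout cells in which A20 was rescued. The Methods list WT, knockout, and knockout-rescue (RE) cells as the sequenced groups, so A20-OE is taken as the RE group. The samples themselves are labelled OE alone, and no sample label states that these cells carry the knockout. Per the Methods, colorectal cancer cells cultured with lentivirus were then screened with puromycin, and no vector control is described for the sequenced WT cells. No other treatment is named for any group. The Methods describe guide RNAs in a LentiCRISPR v2 vector and an A20 vector with a CMV promoter, but not which guide was used for the sequenced cells, nor whether they were 1 clone or a pool. Nothing states that the 3 libraries of a group came from separate cultures, so the p-values measure the spread between these libraries, which may be technical.

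The reads recovered per library ranged from 23406222 to 24963691. TNFAIP3 measured 0.869, 0.80, and 0.736 FPKM (fragments per kilobase of gene length and per unit of sequencing depth) in WT, 1.93, 2.16, and 1.04 in the A20-KO-labelled libraries, and 58.7, 66.5, and 56.5 in A20-OE. The targeted mRNA was thus not lower in the A20-KO-labelled libraries than in WT (log2 fold change 0.95, adjusted p = 0.0182 by limma, and 0.0544 to 0.0701 without WT replicate 2 or A20-KO replicate 1 or 2). This level does not measure the A20 protein, so it does not test the knockout. The study has its own figure of A20 expression in its KO and RE cells. Every direction below that involves the A20-KO-labelled libraries rests on the label. The 10 epithelial markers had a summed level of 1190 to 1602 FPKM in WT, 1870.0 to 2439 in the A20-KO-labelled libraries, and 1886 to 2457 in A20-OE, most of it from KRT8, KRT18, KRT19, and EPCAM. The intestinal markers among them were low, with KRT20 at 0.698 to 0.867 FPKM in WT and VIL1 at 0.0556 FPKM or less in every library. The 7 blood cell markers summed to 0.0576 to 0.518 FPKM, and 6 of 7 stromal and endothelial markers stayed under 1 FPKM in every library. The exception, COL1A1, measured 4.55 to 5.80 FPKM in WT, 12.4 to 14.9 in the A20-KO-labelled libraries, and 11.0 to 12.2 in A20-OE. The part of these markers in the results was not tested. Reads of mitochondrial genes were 8.79% ± 1.30 (SD, n = 3) of the total in WT, 10.4% ± 1.36 in the A20-KO-labelled libraries, and 12.7% ± 1.08 in A20-OE, and shares below are of the other reads.

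The transcripts of the 48 genes together took a smaller share of the reads in both engineered groups than in WT. They made up 1.05%, 1.03%, and 1.01% of the non-mitochondrial reads of the 3 WT libraries, 0.672%, 0.684%, and 0.688% in the A20-KO-labelled libraries, and 0.669%, 0.679%, and 0.705% in A20-OE. The WT libraries lay above all the others, and the A20-KO and A20-OE libraries overlapped. The 79 genes of the cytosolic ribosomal proteins, the structural parts of the finished ribosome, differed in the opposite direction, with 6.25% ± 0.292 (SD, n = 3) in WT, 8.38% ± 1.18 in the A20-KO-labelled libraries, and 8.85% ± 0.819 in A20-OE. In bulk RNA, fewer cells that express a gene and less RNA per cell cannot be told apart.

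**Figure D1:**
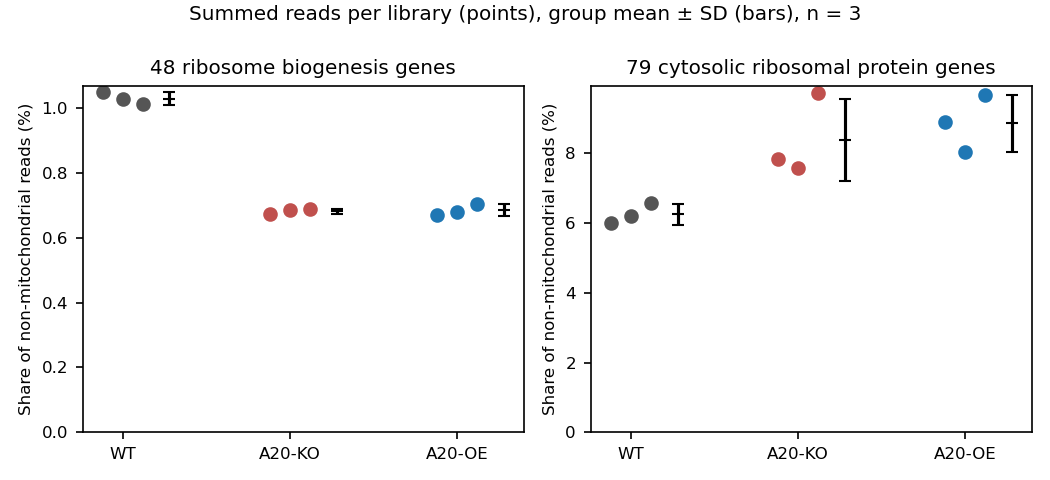
Summed reads of the 48 ribosome biogenesis genes (left) and of 79 cytosolic ribosomal protein genes (right), in percent of the non-mitochondrial reads of each library. Points are libraries and bars the group mean ± SD (n = 3), and the WT points are highest on the left, at 1.01% to 1.05%, and lowest on the right.

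Stretches of promoter are shown for 8 of the genes, because they show what many of these genes share beyond their function. The sequences are from RefSeq (GRCh38.p14) and run from 80 bases before the transcription start to 30 bases after it. The motif CACGTG, the E-box bound by MYC and related factors, is in capitals. It reads the same on both strands.
UTP20, chr12:101280025-101280134, plus strand: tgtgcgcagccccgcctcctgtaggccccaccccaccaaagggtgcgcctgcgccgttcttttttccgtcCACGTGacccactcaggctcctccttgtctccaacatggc
UTP4, chr16:69132569-69132678, plus strand: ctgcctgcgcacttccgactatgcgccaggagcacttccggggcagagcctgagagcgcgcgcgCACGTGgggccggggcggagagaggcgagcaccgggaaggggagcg
NAT10, chr11:34105549-34105658, plus strand: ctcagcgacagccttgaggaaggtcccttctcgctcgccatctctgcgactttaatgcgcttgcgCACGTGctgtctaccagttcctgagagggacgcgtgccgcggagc
DDX21, chr10:68956567-68956676, plus strand: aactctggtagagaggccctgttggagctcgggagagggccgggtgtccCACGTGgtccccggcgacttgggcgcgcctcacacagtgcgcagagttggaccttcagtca
RRP9, chr3:51941875-51941984, minus strand: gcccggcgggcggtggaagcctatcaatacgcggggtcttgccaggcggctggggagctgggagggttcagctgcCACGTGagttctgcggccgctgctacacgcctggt
FBL, chr19:39846350-39846459, minus strand: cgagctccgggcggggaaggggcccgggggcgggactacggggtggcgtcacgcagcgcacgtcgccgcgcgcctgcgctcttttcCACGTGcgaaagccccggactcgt
NIP7, chr16:69339692-69339801, plus strand: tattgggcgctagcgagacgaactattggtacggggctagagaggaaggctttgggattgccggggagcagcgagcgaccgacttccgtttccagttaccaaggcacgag
NOB1, chr16:69754897-69755006, minus strand: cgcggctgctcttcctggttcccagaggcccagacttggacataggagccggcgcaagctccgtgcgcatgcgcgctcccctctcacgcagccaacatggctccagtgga
The first 4 of these genes fell in the A20-KO-labelled libraries and carry the motif, which begins 10 to 31 bases before the start (for DDX21, at 1 of its 2 RefSeq starts). RRP9 and FBL carry it and did not pass the test there, NIP7 fell without it, and NOB1 lacks it and did not fall. In windows of 300 bases, from 250 before to 50 after the start, 18 of the 41 genes with a promoter sequence held the motif. That was 43.9% of them, against 10.9% of 15843 protein-coding genes, with 1.27 windows per gene here and 1.4 per protein-coding gene. Of the 18 genes with the motif 11 were lower in the A20-KO-labelled libraries than in WT at an adjusted p under 0.05, as were 16 of the 23 without it. A match describes the letters and shows no binding. No sequence is shown or counted for NOP58, BOP1, POLR1E, RRP1B, NOLC1, RRP12, and DDX18.

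The levels of the 48 genes spanned a wide range. Their mean over the 9 libraries had a median of 20.2 FPKM, with 3 genes above 100 FPKM (NPM1, NCL, and FBL as the lowest of them) and 1 under 1 FPKM (NOP2, 0.374). All 48 passed the filter on low values, a mean of at least 0.1 FPKM. The WT mean was the highest of the 3 group means in 44 genes. The A20-KO-labelled libraries had the lowest mean in 22 genes, A20-OE in 25, and WT in 1.

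**Figure D2:**
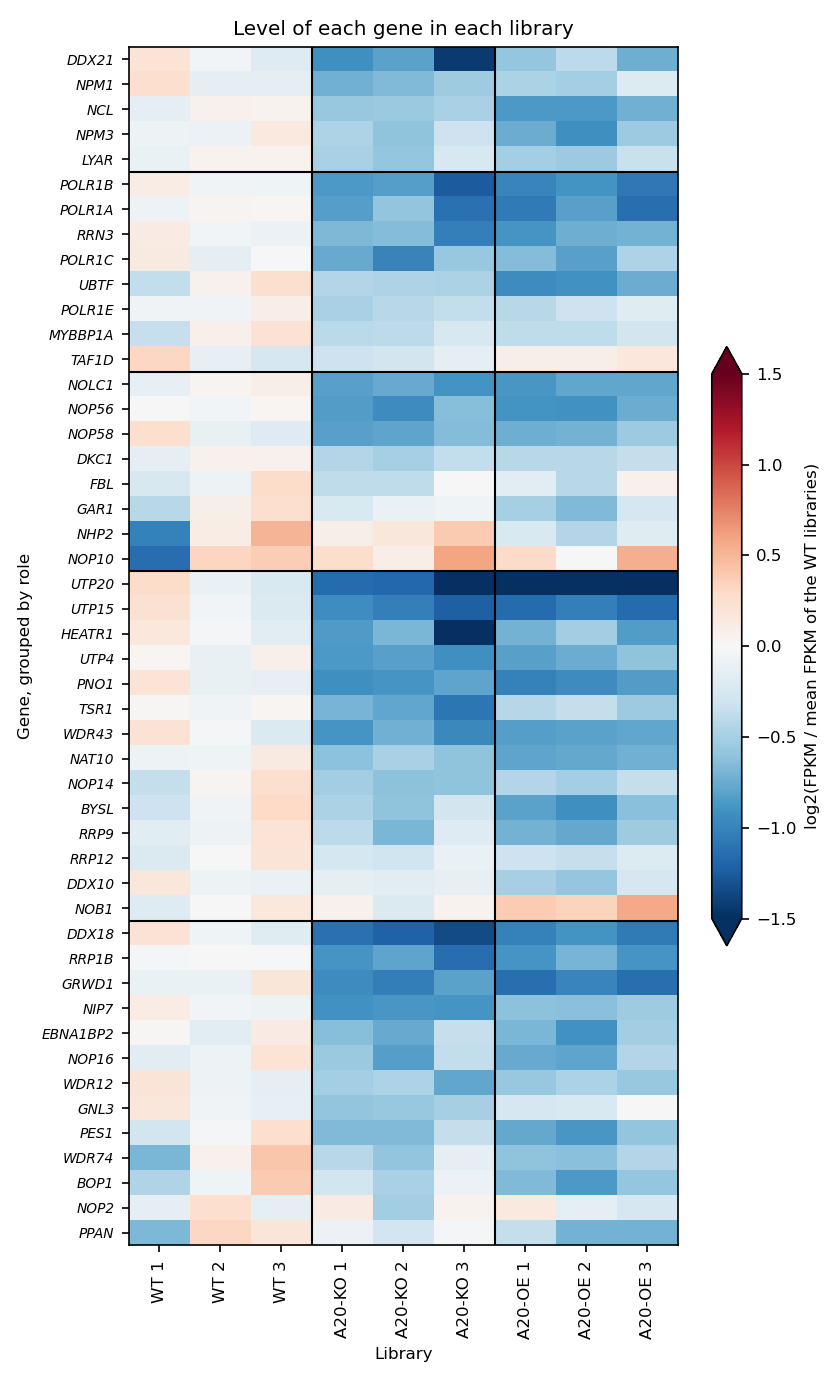
Level of each of the 48 genes in each of the 9 libraries, as the log2 ratio of its FPKM to the mean FPKM of the 3 WT libraries, with lines between the groups and between the roles (from the top, chaperones and RNA-binding proteins, RNA polymerase I, snoRNP proteins, small subunit, large subunit). Blue is lower than the WT mean and the colours saturate at the ends of the scale; most rows turn blue from WT to the other groups, while NOP10 and NHP2 are blue in WT replicate 1.

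The A20-KO against WT comparison asks which genes differed between the A20-KO-labelled libraries and WT. Whether disruption of A20 accounts for a difference was not tested. In the A20-KO-labelled libraries, 32 of the 48 genes were lower than in WT and none was higher at an adjusted p under 0.05 (limma on log2(FPKM + 0.1), Benjamini-Hochberg over 21636 genes). Of all genes tested, 11% were lower and 11.3% higher. The median log2 fold change of the 48 genes was -0.56, against -0.01 over all genes, and 46 of 48 estimates were below 0. The median gene stood at 67.4% of its WT mean. In 35 genes all 3 A20-KO-labelled libraries lay below all 3 WT libraries, as they did for 18.9% of all genes. With the fold change also beyond 1 on the log2 scale, 5 genes remained on the lower side (2.08% of all genes): UTP20, DDX18, DDX21, UTP15, and HEATR1, with 0 on the higher side (4.91% of all genes). At an unadjusted p under 0.05, 36 genes were lower and 0 higher (17.8% and 17.7% of all genes). With limma-voom on the recovered reads 34 were lower and 0 higher (12.7% and 13.4% of all genes).

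All 5 nucleolar chaperones and RNA-binding proteins fell. NPM1, nucleophosmin, a nucleolar chaperone and the most abundant of the 48 transcripts, measured 489, 369.5, and 368 FPKM in WT and 248, 258, and 282 in the A20-KO-labelled libraries. The groups did not overlap, and NPM1 fell by 0.63 ± 0.15 on the log2 scale (SE, standard error; adjusted p = 0.0162). Without A20-KO replicate 1 it was -0.59 with an adjusted p of 0.0648. The table also lists 45 NPM1 pseudogenes, which together reached at most 550 reads in a library against 23086 or more for NPM1. DDX21, an RNA helicase that acts in ribosomal RNA transcription and processing, measured 81.6, 69.1, and 61.9 FPKM in WT and 37.5, 40.8, and 26.2 in the A20-KO-labelled libraries. Every WT value lay above every A20-KO value, and the mean fell to 49.1% of WT (log2 fold change -1.04 ± 0.18 SE, adjusted p = 0.00411). Nucleolin (NCL), NPM3, and LYAR fell by 0.53, 0.45, and 0.43 on the log2 scale.

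Of the 8 genes of RNA polymerase I and its factors, 5 fell, with a median log2 fold change of -0.60 over all 8. They were the catalytic subunits POLR1A and POLR1B, the subunits POLR1C and POLR1E, and the initiation factor RRN3, with log2 fold changes from -0.97 (POLR1B) to -0.42 (POLR1E). UBTF, which shapes active ribosomal RNA genes, came to -0.43 with an adjusted p of 0.0609, and TAF1D of the promoter selectivity factor to -0.22 with an adjusted p of 0.291. Without WT replicate 1 UBTF came to -0.61 and passed (adjusted p = 0.00379 by limma), and TAF1D did not. MYBBP1A, a nucleolar protein that associates with RNA polymerase I and the most abundant transcript of the 8, measured 23.1, 30.9, and 34.2 FPKM in WT and 22.3, 22.4, and 24.9 in the A20-KO-labelled libraries. Its WT replicate 1 lay among the A20-KO values, and the difference of -0.32 did not pass (adjusted p = 0.13). Without that library it was -0.48 with an adjusted p of 0.00727.

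Among the snoRNP proteins 4 of 8 fell. NOP56 and NOP58, core proteins of the box C/D particles that guide methylation, fell by 0.80 and 0.73 on the log2 scale. NOLC1, a chaperone of snoRNPs, measured 124, 139, and 143 FPKM in WT and 76.8, 80.3, and 72.6 in the A20-KO-labelled libraries. The groups were far apart, at -0.82 ± 0.09 SE on the log2 scale (adjusted p = 0.000634). DKC1, the pseudouridine synthase of the box H/ACA particles, fell by 0.43. The other H/ACA proteins gave -0.10 (GAR1), 0.34 (NHP2), and 0.47 (NOP10), and none passed. Without WT replicate 1 the values were -0.30, -0.10, and -0.03, and none passed either. NHP2 and NOP10 are among the 4 genes, with WDR74 and PPAN, in which WT replicate 1 was more than 1.5 times below both other WT libraries: NOP10 measured 38.8, 107, and 111 FPKM in WT and 103, 91.7, and 129 in the A20-KO-labelled libraries. FBL, the methyltransferase of the C/D particles and the most abundant of this role, measured 93.1, 104, and 133 FPKM in WT and 84.4, 84.8, and 111 in the A20-KO-labelled libraries. The groups overlapped, and the log2 fold change of -0.24 had an interval from -0.64 to 0.17 (adjusted p = 0.385).

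Among the small subunit factors 9 of 14 fell, with a median log2 fold change of -0.70 over all 14. UTP20 (ENSG00000120800, chr12:101280109-101386616, plus strand of GRCh38), a large scaffold protein of the small subunit processome, showed the largest fall of the 48 genes. It measured 8.4, 6.46, and 5.89 FPKM in WT and 3.10, 3.06, and 2.22 in the A20-KO-labelled libraries. The mean fell to 40.4% of WT without overlap (log2 fold change -1.28 ± 0.19 SE, adjusted p = 0.00191). UTP4, UTP15, WDR43, and HEATR1 belong to the subcomplex that binds the precursor earliest, and all of them fell. UTP4 measured 24.5, 22.3, and 25.2 FPKM in WT against 13.2, 13.6, and 12.7 (log2 fold change -0.86 ± 0.09 SE, adjusted p = 0.000453). UTP15 measured 9.04, 7.51, and 6.63 FPKM against 4.06, 3.79, and 3.31, and its mean fell to 48.1% of WT (log2 fold change -1.03, adjusted p = 0.00118). HEATR1 measured 14.8, 13.1, and 11.8 FPKM against 7.36, 8.24, and 4.53 (log2 fold change -1.01, adjusted p = 0.00889). None of these groups overlapped, and A20-KO replicate 3 was more than 1.5 times below the other A20-KO libraries for HEATR1 alone among the 48 genes. Exon bases shared with LGALS8 on the opposite strand make up 23.2% of HEATR1.

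The other small subunit factors differed more among themselves. PNO1, TSR1, NOP14, and NAT10, the RNA acetyltransferase, fell by 0.85, 0.85, 0.56, and 0.56 on the log2 scale. NOB1, the nuclease that makes the final cut of the small subunit RNA, gave a log2 fold change of -0.03 with an interval from -0.31 to 0.25. RRP9, a protein of the U3 snoRNP and the most abundant of this role, measured 53.1, 56.7, and 68.8 FPKM in WT and 45.5, 37.1, and 52.1 in the A20-KO-labelled libraries. Its groups did not overlap but the difference of -0.41 did not pass (adjusted p = 0.0753, and 0.0466 without A20-KO replicate 3, where it was -0.53). BYSL (-0.43), RRP12 (-0.21), and DDX10 (-0.13) did not pass either. Without WT replicate 1 BYSL gave -0.57 and passed (adjusted p = 0.0311 by limma), and RRP12 and DDX10 did not.

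Among the large subunit factors 9 of 13 fell. DDX18, a helicase, measured 27.4, 22.5, and 20.8 FPKM in WT and 10.9, 10.1, and 9.28 in the A20-KO-labelled libraries. The mean fell to 42.8% of WT without overlap (log2 fold change -1.21 ± 0.12 SE, adjusted p = 0.000364). NIP7, an assembly factor of the large subunit, had the smallest adjusted p of the 48 genes. It measured 19.9, 18.0, and 17.5 FPKM in WT and 9.88, 10.1, and 9.97 in the A20-KO-labelled libraries, which differed little among themselves (log2 fold change -0.88 ± 0.08 SE, adjusted p = 0.000297). RRP1B measured 34.2, 34.8, and 34.9 FPKM against 18.7, 20.02, and 15.7 (log2 fold change -0.93 ± 0.11 SE, adjusted p = 0.000634). GRWD1, a histone-binding assembly factor, fell by 0.91 on the log2 scale. PES1, BOP1, and WDR12 form a single complex, and PES1 and WDR12 fell by 0.54 and 0.57. BOP1, the most abundant of this role, measured 69.3, 91.1, and 125 FPKM in WT and 78.8, 68.0, and 89.3 in the A20-KO-labelled libraries. These groups overlapped, and its log2 fold change of -0.24 had an interval from -0.69 to 0.21 (adjusted p = 0.44). EBNA1BP2, NOP16, and GNL3 (nucleostemin) fell by 0.58, 0.57, and 0.54, and WDR74, NOP2, and PPAN did not pass. Without WT replicate 1 WDR74 gave -0.62 and passed (adjusted p = 0.0279 by limma), and NOP2 and PPAN again did not. NOP2 had 31 to 54 reads per library and PPAN 141 to 311, and 54.4% and 59.8% of their exon bases are shared with another gene on the same strand, so their levels are uncertain.

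**Figure D3:**
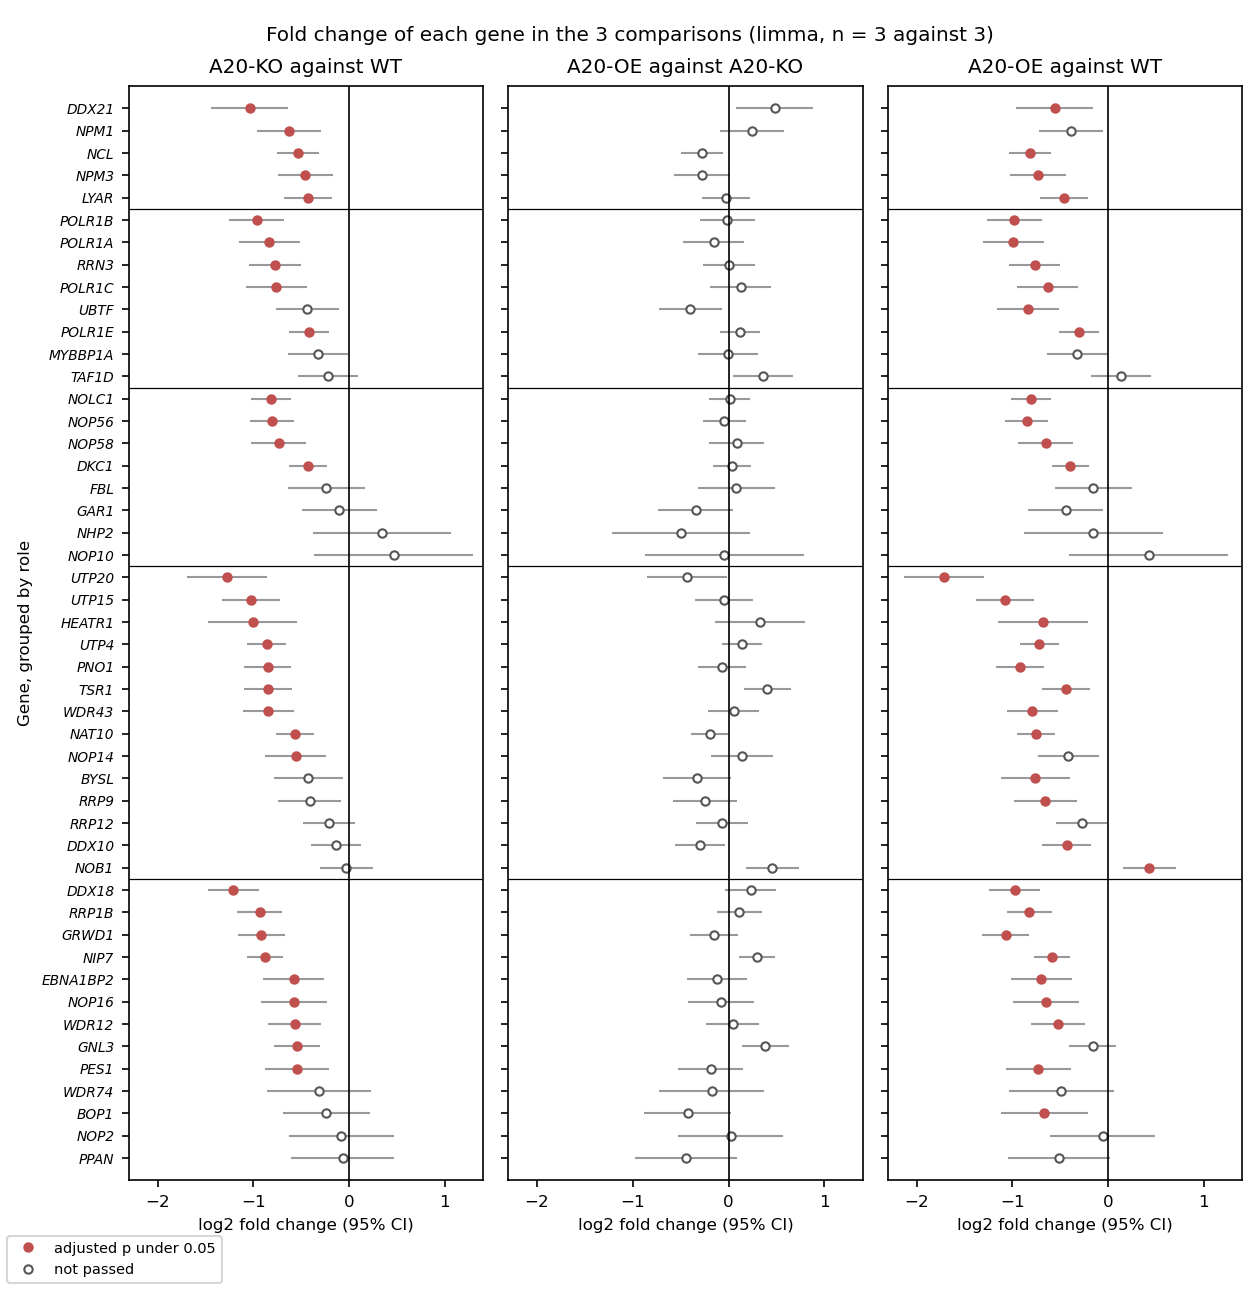
Log2 fold change of each of the 48 genes with its 95% confidence interval in the 3 comparisons, on the log2(FPKM + 0.1) scale, grouped by role as in the map of levels. Filled points have an adjusted p under 0.05; there are 32 in A20-KO against WT, 0 in A20-OE against A20-KO, and 35 in A20-OE against WT, of which NOB1 alone lies above 0.

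The A20-OE against A20-KO comparison asks which genes differed between the engineered groups, with the A20-KO-labelled libraries as the reference. No gene of the 48 passed the adjusted p in either direction by limma, where 4.54% of all genes were lower and 4.43% higher. The median log2 fold change was -0.02, against 0.01 over all genes. At an unadjusted p under 0.05, 6 of the 48 were higher and 4 lower (12.6% and 12.9% of all genes). No gene of the 48 passed both thresholds (0.832% of all genes lower, 1.56% higher), and limma-voom on the recovered reads gave 3 higher and 0 lower. For 26 of the 48 genes the whole 95% interval lay between -0.5 and 0.5 on the log2 scale. A20-OE lay wholly below the A20-KO-labelled libraries in 9 genes and wholly above them in 10 (18% and 17.4% of all genes). This comparison shares the A20-KO libraries with the preceding one.

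The most abundant gene of each role gave estimates on both sides of 0. NPM1 measured 295, 287, and 354 FPKM in A20-OE, above all 3 A20-KO-labelled libraries and below all 3 of WT, with a log2 fold change of 0.24 (interval -0.09 to 0.58, adjusted p = 0.343). BOP1 measured 59.8, 52.1, and 63.4 FPKM, below the A20-KO-labelled libraries, with a log2 fold change of -0.42 (interval -0.88 to 0.03, adjusted p = 0.224). RRP9 (-0.25, interval -0.58 to 0.09), FBL (0.08, interval -0.32 to 0.48), and MYBBP1A (-0.01, interval -0.32 to 0.31) overlapped between the groups. The genes nearest to the threshold, named after their values were seen, were NOB1 (log2 fold change 0.46, adjusted p = 0.0518), TSR1 (0.41, 0.0532), GNL3 (0.39, 0.0591), and NIP7 (0.30, 0.0597), all higher in each A20-OE library than in each A20-KO-labelled library. Without WT replicate 1, which enters only the shared estimate of the spread, 5 of the 48 genes were higher and 3 lower, against 6.68% and 8.28% of all genes in that fit.

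The A20-OE against WT comparison shares libraries with both others. Relative to WT, 34 of the 48 genes were lower in A20-OE and 1 was higher, against 15.4% and 15.7% of all genes. The median log2 fold change was -0.65, against 0.03 over all genes, and the median gene stood at 63.4% of its WT mean. In 36 genes all A20-OE libraries lay below all WT libraries (21.8% of all genes). Past both thresholds 3 genes were lower (4.21% of all genes), UTP20, UTP15, and GRWD1, and 0 higher (7.68%). At an unadjusted p under 0.05, 39 were lower and 1 higher (20.4% and 21.1% of all genes). By role, 4 of 5 chaperones and RNA-binding proteins, 6 of 8 genes of RNA polymerase I, 4 of 8 snoRNP proteins, 11 of 14 small subunit factors, and 9 of 13 large subunit factors were lower.

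UTP20 again showed the largest fall, to 2.0, 2.35, and 1.75 FPKM, which is 29.3% of its WT mean (log2 fold change -1.71 ± 0.19 SE, adjusted p = 0.000205). GRWD1 had the smallest adjusted p. It measured 19.0, 18.9, and 23.1 FPKM in WT and 9.31, 10.2, and 9.30 in A20-OE (log2 fold change -1.07 ± 0.11 SE, adjusted p = 0.000155). UTP15 measured 3.46, 3.81, and 3.47 FPKM in A20-OE (log2 fold change -1.08, adjusted p = 0.000434). NOLC1 measured 73.7, 79.1, and 78.5 FPKM in A20-OE, a mean of 77.1 FPKM against 76.6 in the A20-KO-labelled libraries (log2 fold change against WT -0.81, adjusted p = 0.00028). NAT10 measured 26.7, 26.9, and 30.8 FPKM in WT and 16.3, 16.5, and 17.1 in A20-OE (log2 fold change -0.75, adjusted p = 0.000318). NOP56 measured 75.7, 73.5, and 77.1 FPKM in WT and 40.5, 40.1, and 45.0 in A20-OE (log2 fold change -0.85, adjusted p = 0.000326). The WT and A20-OE libraries of these 6 genes did not overlap.

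NOB1 was the exception. It measured 36.7, 42.0, and 46.9 FPKM in WT, 43.6, 36.1, and 43.5 in the A20-KO-labelled libraries, and 54.7, 52.6, and 62.0 in A20-OE. The A20-OE libraries were above all others, 0.43 ± 0.12 SE above WT on the log2 scale (adjusted p = 0.0262). The call did not hold without WT replicate 1 (0.34, adjusted p = 0.0607), WT replicate 2 (0.44, 0.0672), A20-OE replicate 1 (0.45, 0.0657), or A20-OE replicate 3 (0.36, 0.0912), and within bins of gene length the fold change was 0.10 (adjusted p = 0.592). An antisense transcript shares 20.2% of the exon bases of NOB1, and whether the counting used strand is not stated.

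Of the most abundant genes, BOP1 and RRP9 were lower in A20-OE than in WT by 0.66 and 0.66 on the log2 scale (adjusted p = 0.0331 and 0.00853). The BOP1 call was lost in 6 of the 9 fits without 1 library (adjusted p 0.0545 to 0.115), those without WT replicate 2 or 3, A20-KO replicate 1, or any A20-OE replicate. NPM1 (-0.38, adjusted p = 0.0805), MYBBP1A (-0.33, adjusted p = 0.105), and FBL (-0.15, adjusted p = 0.56) did not pass. Without WT replicate 1 the value of MYBBP1A was -0.49 with an adjusted p of 0.0039. In that limma fit, unlike the main one, GAR1 (-0.64, adjusted p = 0.00747), NHP2 (-0.59, 0.0195), WDR74 (-0.79, 0.00663), and PPAN (-0.81, 0.00436) also passed. NOP14 and RRP12 passed as lower too, and TAF1D as higher (0.30, 0.0237). DDX21, HEATR1, and NOB1 no longer passed. Of all genes, 16% were lower and 15.2% higher in that fit. GNL3, which had fallen in the A20-KO-labelled libraries, stood at 89.4% of WT in A20-OE and did not pass (adjusted p = 0.309).

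The estimates varied with the length and base composition of the genes. Across the 48 genes the log2 fold change of A20-KO against WT had a Spearman correlation of -0.47 with gene length and of 0.47 with GC content. Across all genes these were -0.08 and 0.34. The 48 genes gave -0.38 and 0.14 in A20-OE against WT, and 0.11 and -0.45 in A20-OE against A20-KO. All genes gave -0.08 and 0.14, and -0.01 and -0.21. These are descriptions across genes of the same libraries, and genes are not independent replicates. In A20-KO against WT, 18 of the 24 longer genes (4557 bases or more) were lower, with a median of -0.82. Of the 24 shorter genes 14 were lower, with a median of -0.43. With the values of each library centred within bins of GC content, 37 of the 48 genes were lower in A20-KO against WT and 39 in A20-OE against WT. Within bins of gene length 34 and 35 were lower (11.8% and 16.9% of all genes). The GC bins also moved the calls over all genes, to 15.5% lower and 9.79% higher in A20-KO against WT and to 22.4% and 14.2% in A20-OE against WT, where the median of all genes moved to -0.08 and that of the 48 genes to -0.72. With the libraries scaled to their total reads, all genes split into 6.58% lower and 3.40% higher in A20-OE against A20-KO, and 1 of the 48 genes was called in each direction.

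The rest of the pathway was counted in lists that hold none of the 48 genes. Of all genes, 11% were lower and 11.3% higher in A20-KO against WT. In A20-OE against A20-KO these shares were 4.54% and 4.43%, and in A20-OE against WT 15.4% and 15.7%. Of 43 other small subunit genes, 28 were lower and 0 higher in the A20-KO-labelled libraries than in WT, with a median log2 fold change of -0.55. UTP14A, a processome protein, fell past both thresholds (-1.16), from 10.5, 10.3, and 11.6 FPKM in WT to 4.59, 4.53, and 5.13. Of 52 other large subunit genes 34 were lower and 1 higher, with a median of -0.53, and PAK1IP1 (-1.11) and URB2 (-1.07) passed both thresholds. Of 15 other RNA polymerase I genes 6 were lower and 0 higher (median -0.25), and of 10 other snoRNP genes 5 were lower and 0 higher (median -0.40).

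In A20-OE against WT the same lists gave 32 lower and 1 higher (small subunit), 33 and 1 (large subunit), 8 and 1 (RNA polymerase I), and 8 and 0 (snoRNP). TCOF1, treacle, which links RNA polymerase I to the processing of its transcript, measured 15.9, 20.5, and 21.6 FPKM in WT, 11.1, 11.0, and 12.4 in the A20-KO-labelled libraries, and 7.34, 8.18, and 8.84 in A20-OE. TAF1A, of the promoter selectivity factor, measured 6.32, 5.65, and 5.55 FPKM, then 4.41, 4.23, and 3.51, and then 2.33, 2.24, and 1.91. Both were lower in A20-OE than in the A20-KO-labelled libraries as well (log2 fold change -0.50 with adjusted p = 0.0474, and -0.87 with adjusted p = 0.00642), the only such calls among the other RNA polymerase I genes. In that comparison 1 of the 43 small subunit genes was lower and 2 higher, 2 of the 52 large subunit genes were lower and 1 higher, and 0 of the 10 snoRNP genes were called in either direction (3 lower and 0 higher at an unadjusted p under 0.05). The higher small subunit gene past both thresholds was the helicase gene DDX47 (1.22), at a low level of 0.46 to 0.857 FPKM in the A20-KO-labelled libraries and 1.5 to 1.61 in A20-OE.

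The cytosolic ribosomal protein genes, as a separate list, moved the other way. Of 79 genes, 15 were higher and 1 lower in A20-KO against WT, 1 higher and 0 lower in A20-OE against A20-KO, and 33 higher and 1 lower in A20-OE against WT, with median log2 fold changes of 0.38, 0.11, and 0.48. Of all genes, 11.3%, 4.43%, and 15.7% were higher in these comparisons. The count in A20-KO against WT depended on the setting. It was 5 without the filter on low values (5.68% of all genes) and 6 without A20-KO replicate 3 (8.21%). The medians there were 0.38 and 0.25. With the replicate block the count was 34 (12.8% of all genes). RPS27 (1.08) and RPL23A (1.02) passed both thresholds in A20-OE against WT. Reads of these genes can be shared with their many processed pseudogenes, so single values are uncertain.

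MYC and its partners were listed because MYC is known to drive ribosome biogenesis genes through the E-box, while the MXD proteins compete with MYC for their common partner MAX. MYC measured 117, 140.3, and 156 FPKM in WT, 107, 104, and 106 in the A20-KO-labelled libraries, and 117, 111, and 131 in A20-OE. On the log2 scale it differed by -0.37 ± 0.12 SE (adjusted p = 0.0566) in A20-KO against WT, 0.17 (adjusted p = 0.412) in A20-OE against A20-KO, and -0.20 (adjusted p = 0.26) in A20-OE against WT. Of the 11 genes of this list that were tested, 3 were higher and 0 lower in A20-KO against WT (11.3% and 11% of all genes). In A20-OE against A20-KO 2 were higher and 0 lower (4.43% and 4.54%). In A20-OE against WT 3 were higher and 2 lower (15.7% and 15.4%). MXD4 measured 3.21, 5.19, and 5.54 FPKM in WT, 12.5, 10.8, and 12.8 in the A20-KO-labelled libraries, and 9.24, 9.73, and 9.91 in A20-OE (log2 fold change against WT 1.39 and 1.07). MXD1 measured 1.62, 1.36, and 1.25 FPKM, then 2.58, 2.69, and 2.24, and then 6.22, 6.13, and 5.58, with a log2 fold change of 1.23 from A20-KO to A20-OE and of 2.01 from WT to A20-OE. MXI1 rose by 1.16 on the log2 scale from WT to A20-OE. MAX, the common partner, had a mean of 11.7 FPKM in WT, 10.05 in the A20-KO-labelled libraries, and 7.55 in A20-OE. MAX differed by -0.22 on the log2 scale in A20-KO against WT (adjusted p = 0.257 by limma). The means of MLX, also of this list, were 12.9, 12.1, and 10.3 FPKM in the same order. For MAX and MLX every A20-OE library lay below every WT library. The part of these genes in the falls above was not tested.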

How the data were processed

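Poly-A selected RNA of HCT116 cells was sequenced in 9 libraries. Per the submitters' processing notes and the Methods, the authors aligned the reads with HISAT2 (2.0.5), counted them per gene with featureCounts (1.5.0-p3), and deposited FPKM. The genome build is not given in the sources used here; 99.9% of the genes have their GENCODE 29 coordinates (GRCh38). The deposited gene length column is another value, in bases.

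FPKM are not counts, so log2(FPKM + 0.1) was tested with limma (3.58.1, R 4.3.3) using a variance trend, on the 21636 genes that reached a mean of 0.1 FPKM, the 3 groups in 1 fit, and Benjamini-Hochberg adjustment. Whole reads (23406222 to 24963691 per library) were recovered from FPKM and gene length, with 100% of nonzero values within 0.05 of a whole number; limma-voom on them called 2758 genes lower and 2897 higher in A20-KO against WT. Fold changes on this scale understate the change of low genes. On simulated reads for A20-KO against WT, over 21144 genes, limma recovered 34 of 34 genes of 1 FPKM or more changed by 2 on the log2 scale, 40 of 43 changed by 1, and 1 of 38 changed by 0.5, with 7 false calls.

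Groups and replicate numbers came from the labels. Alternatives are given in the closing section. Genes named with all values were, per comparison, the 5 with the smallest adjusted p in each direction, those past both thresholds, and the most abundant of each role; others were named after their values were seen. The genes and lists were chosen with earlier results of these data known.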

Additional observations from a re-analysis of the deposited data

How the results depend on the processing

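Of the 32 genes called in A20-KO against WT, 23 passed in all 23 alternatives and 24 in all 9 fits without 1 library, and of the 35 in A20-OE against WT 27 and 27. Those that did not pass in all 23 were NPM1, NPM3, LYAR, POLR1E, NOP14, PES1, NOP16, GNL3, and EBNA1BP2 in the former, and DDX21, LYAR, POLR1E, HEATR1, DDX10, NOB1, TSR1, and BOP1 in the latter. The 23 alternatives were a pseudocount of 1 or 0.01, no filter or one at 1 FPKM, other scalings, 2 groups only, no variance trend, and limma-voom. They also held the replicate block, each library left out, and, chosen after seeing the data, bins of GC content and gene length with and without the block. An unadjusted p-value was a further setting outside these 23.

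In the fits without 1 library, 24 to 36 genes were lower in A20-KO against WT. The 24 came without A20-KO replicate 1, where 7.04% of all genes were lower. In A20-OE against WT 28 to 39 were lower, with 28 without A20-OE replicate 1 (11.1% of all genes). In that comparison 0 to 1 were higher (0 without WT replicate 2, A20-OE replicate 1, or A20-OE replicate 3). In A20-OE against A20-KO 0 to 5 were higher and 0 to 3 lower, with 5 and 3 without WT replicate 1 (6.68% and 8.28% of all genes) and 1 and 0 without WT replicate 3 (4.42% and 4.81%). The cause was not tested.

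The other counts in A20-OE against A20-KO, 0 as reported, are given with the shares of all genes, higher then lower. They were 3 higher with a mean of at least 1 FPKM (7.40% and 8.78%) or with limma-voom (6.12% and 5.54%), 1 higher with median-of-ratios scaling (4.48% and 4.42%), 1 higher and 1 lower scaled to total reads (3.40% and 6.58%), 4 higher and 2 lower with only the 2 groups (5.28% and 6.50%), 6 higher and 4 lower at an unadjusted p-value (12.6% and 12.9%), 1 higher and 3 lower in GC bins (5.78% and 8.54%), and 2 higher and 1 lower in length bins (4.40% and 5.24%). The single gene higher in A20-OE against WT became 0 without the variance trend and in length bins, and 2 in GC bins. In GC bins the median log2 fold change was -0.67 in A20-KO against WT and -0.11 in A20-OE against A20-KO. Over the alternatives the estimate took both signs for 8 of the 48 genes in A20-KO against WT (TAF1D, GAR1, NHP2, NOP10, DDX10, NOB1, NOP2, and PPAN), 20 in A20-OE against A20-KO, and 3 in A20-OE against WT (NHP2, NOP10, and NOP2), none of which had passed. Among the genes with the highest mean FPKM of their role it turned for MYBBP1A in A20-OE against A20-KO (0.013 and 0.011 without A20-OE replicate 1 or 2, 0.12 in GC bins, range without 1 library -0.041 to 0.046) and for FBL (-0.0076 in length bins, range without 1 library -0.037 to 0.21, below 0 without A20-OE replicate 3).

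Same-numbered libraries of different groups hardly deviated together (correlation of their deviations from the group means -0.03 to 0.12 over 9 pairs, mean 0.04, against -0.02 for 18 pairs of unlike number), so the numbers were not taken to pair the libraries. With the replicate block, 35 genes were lower in A20-KO against WT (13.1% of all genes) and 36 in A20-OE against WT (17.0%). In the latter 1 was higher (16.9% of all genes). In A20-OE against A20-KO 3 were higher and 1 lower (5.69% and 6.22% of all genes). The block with GC bins gave 6 lower and 2 higher in A20-OE against A20-KO (10.5% and 6.69% of all genes, median -0.11, MYBBP1A 0.12), a median of -0.67 in A20-KO against WT, and 2 higher in A20-OE against WT. The block with length bins gave 3 lower and 3 higher in A20-OE against A20-KO (6.51% and 5.11% of all genes, FBL -0.0076) and 0 higher in A20-OE against WT.

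With 3 libraries a group, the median half-width of a 95% interval over the 48 genes was 0.30 on the log2 scale before adjustment. On reads simulated for A20-KO against WT, 1 of 38 genes of 1 FPKM or more that changed by 0.5 passed the adjusted p. Far fewer genes were changed there than were called in the data (11% lower and 11.3% higher), which makes the adjustment stricter. The simulation therefore cannot show which differences were detectable here. Near that size, some of the 48 genes passed by limma in A20-KO against WT, such as DKC1 (-0.43, adjusted p = 0.00839). Others did not, such as UBTF (-0.43, adjusted p = 0.0609).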

Other observations

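For the lists of this section, the shares of all genes called were 11% lower and 11.3% higher in A20-KO against WT. They were 4.54% and 4.43% in A20-OE against A20-KO, and 15.4% and 15.7% in A20-OE against WT. RNA polymerase III, which makes transfer RNAs and the 5S ribosomal RNA, shares some subunits with RNA polymerase I. Of 20 genes of this enzyme and its factors, 12 were lower and 0 higher in A20-KO against WT, 2 lower and 0 higher in A20-OE against A20-KO, and 12 lower and 0 higher in A20-OE against WT, with median log2 fold changes of -0.50, 0.01, and -0.47. Those past both thresholds in A20-OE against WT included GTF3C6, a subunit of the initiation factor TFIIIC (-1.57), and the polymerase subunits POLR3K (-1.26) and POLR3F (-1.02). GTF3C6 measured 18.3, 18.1, and 20.4 FPKM in WT, 9.29, 9.42, and 11.9 in the A20-KO-labelled libraries, and 6.53, 5.63, and 6.77 in A20-OE, and these groups did not overlap.

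The RNA exosome trims ribosomal RNA precursors from their ends. Of its 14 listed genes, 7 were lower and 0 higher in A20-KO against WT, 0 lower and 1 higher in A20-OE against A20-KO, and 9 lower and 0 higher in A20-OE against WT, where EXOSC9 (-1.16) and EXOSC8 (-1.06) passed both thresholds. Many snoRNAs are cut from the introns of noncoding host genes. Of 14 such genes, 3 were lower and 2 higher in A20-KO against WT, 0 lower and 2 higher in A20-OE against A20-KO, and 0 lower and 6 higher in A20-OE against WT, with median log2 fold changes of 0.29, 0.19, and 0.38. Of the 9 epithelial markers tested, 3 were higher and 0 lower in A20-KO against WT, 0 higher and 0 lower in A20-OE against A20-KO (1 and 0 at an unadjusted p under 0.05, limma), and 5 higher and 0 lower in A20-OE against WT. KRT20, which marks differentiated intestinal cells, gave 2.19 and 2.08 against WT, CLDN4 1.26 and 1.54, and KRT19 1.02 and 1.06. EPCAM (-0.15 and -0.30) and ESRP1 (-0.12 and -0.0033) did not pass.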
